A study of Homo sapiens with 18 samples.

Results

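The genes described are 10 transcription factors that build or keep the epithelial state, out of 60662 genes in the count table. They are the ETS factor ELF3, the zinc finger factors OVOL1 and OVOL2, the grainyhead factors GRHL1, GRHL2 and GRHL3, the Krüppel-like factors KLF4 and KLF5, and TP63 and TP73 of the p53 family. They were chosen by symbol, with the differences of ELF3 and KLF4 between 3D and 2D culture at the 2 later timepoints already seen, so those culture differences are a description and carry no p-value. Standard errors and calls given for them place the values beside the spread and the threshold over all genes, and nothing is read from them about the factors as a set. Of the 10, 9 passed the filter on low counts, and GRHL2 did not.

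The RNA came from MCF10A, an established line of non-malignant breast epithelial cells, plated sparsely on soft polyacrylamide gels coated with Matrigel, an extract of basement membrane. For 3D culture the medium was replaced after attachment with growth medium holding 2% Matrigel, which sets around the cells, and for 2D culture with growth medium alone. All groups grew in the same medium with horse serum, EGF, insulin, cholera toxin and hydrocortisone, and the labels name no genetic change. Each culture was sampled at 3 timepoints with 3 libraries each, 18 in all. The protocol names harvests at 3, 12 and 21 h after plating, and their match to timepoints 1, 2 and 3 rests on order alone.

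Epithelial cells hold their identity through a small network of such factors. Grainyhead factors bind and open enhancers of cell junction genes such as CDH1 and CLDN4, OVOL factors repress drivers of the mesenchymal state such as ZEB1, and ELF3 is an ETS factor found mainly in epithelia. TP63 maintains the basal cells of stratified and glandular epithelia, and KLF4 and KLF5 act on differentiation and proliferation of the same cells.

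CPM are the deposited counts per 1000000 counts of each library's effective size. They are not comparable between genes here, because the summed counts of a library (49811449 to 93894215) were 4.73 to 5.73 times the library total in the file headers, under a counting rule not given in the sources used here. At timepoint 2 mitochondrial genes took 0.364% to 0.482% of counts in the 3D libraries, against 0.908% to 1.18% in the 2D libraries. Ribosomal protein genes took 13.5% to 18.7% in 3D, against 8.98% to 11.2% in 2D. The part of these shifts in the results was not tested. In bulk RNA, fewer cells of a type and less RNA per cell cannot be told apart. The labels do not say whether libraries came from separate cultures, so p-values measure only the spread between these samples. Libraries of the same replicate number share a date in the sample descriptions and deviated from their group means together. The main fit has no block for this number, and results with that block are given beside some of its results.

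The library labelled 2D timepoint 3 replicate 1 stood apart from its group. Its description lists the raw count table alone, so it was left out of the tests, and 2D timepoint 3 had n = 2. Of the 278 genes that differed between 3D and 2D at timepoint 3 without it, 260 (93.5%) lay nearer the 3D mean in this library. Across genes its log2 CPM correlated at 0.988 with the mean of 3D timepoint 3 and at 0.974 with the mean of 2D timepoint 3. Of the 9 factors tested, 7 lay nearer the 3D mean in it, with ELF3 at 0.906 CPM, GRHL3 at 3.74 CPM and KLF4 at 4.87 CPM. OVOL1 at 0.516 CPM and KLF5 at 103 CPM lay nearer the 2D mean.

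**Figure D1:**
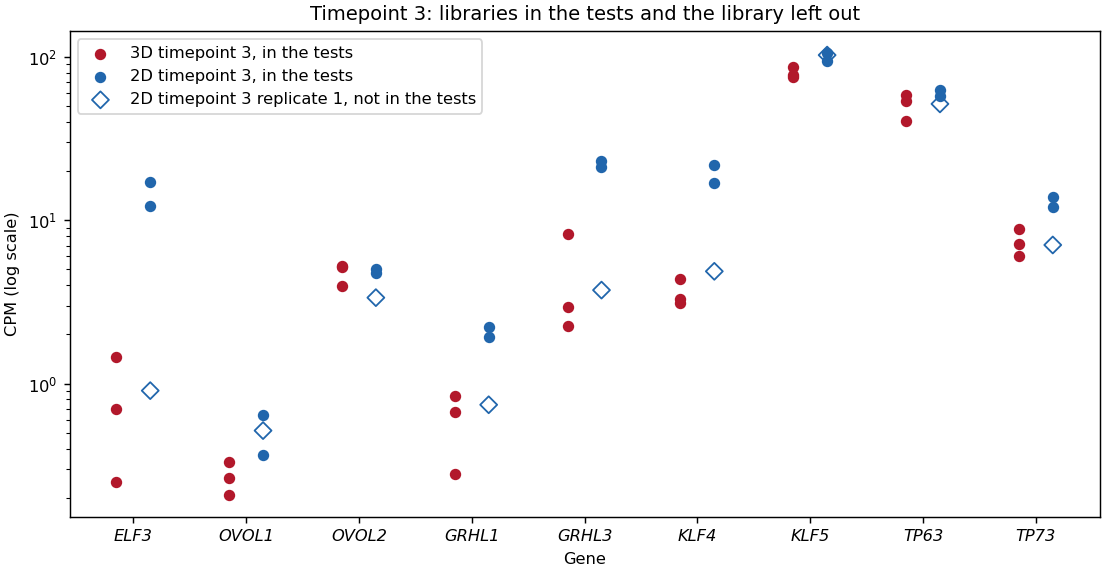
CPM of the 9 tested factors at timepoint 3 on a log axis; red points are the 3D libraries, filled blue points the 2D libraries in the tests, and open diamonds the library labelled 2D timepoint 3 replicate 1. The diamond lies at or near the red points for ELF3, GRHL1, GRHL3, KLF4 and TP73, and with the blue points for KLF5.

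At timepoint 1 none of the factors passed the threshold between cultures. At timepoints 2 and 3 ELF3, GRHL3 and KLF4 were lower in 3D, and OVOL1 was lower in 3D at timepoint 2. ELF3, OVOL1, GRHL3 and KLF4 also fell with time in 3D. In 2D ELF3 and OVOL1 fell at both later timepoints, GRHL3 fell at timepoint 2, and KLF4 rose at timepoint 3. TP73 rose with time in both cultures and TP63 rose in 2D. In the main fit, which has no block for replicate number, OVOL2, KLF5 and GRHL1 passed the threshold in none of these comparisons. With the replicate number as a block, KLF5 and TP73 passed between cultures at timepoint 2 and GRHL1 at timepoint 3. Against timepoint 1 in 3D, that block also gave calls for OVOL2 and TP63 at both later timepoints and for GRHL1 at timepoint 3.

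A gene is called where edgeR's quasi-likelihood test gave a Benjamini-Hochberg adjusted p under 0.05 over all 18592 genes tested. Between 3D and 2D at timepoint 1, 0 of 9 factors were called, against 0% of all genes, and DESeq2 and limma-voom called 0 factors too. At an unadjusted p under 0.05, 1 factor (KLF5) and 244 genes (1.31%) passed there. At timepoint 2, 4 of 9 were called lower in 3D and 0 higher, against 0.785% of all genes called lower, 0.705% higher and 1.49% in either direction. At timepoint 3, 3 of 9 were called lower and 0 higher, against 1.26% of all genes called lower, 0.231% higher and 1.5% in either direction. The culture difference was known for some of these factors when they were listed, so nothing is read from those 2 counts.

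The median log2 fold change of the 9 factors, 3D over 2D, was -0.13 at timepoint 1, -0.84 at timepoint 2 and -0.93 at timepoint 3, beside 0.00 at timepoint 1, -0.03 at timepoint 2 and 0.02 at timepoint 3 over all genes. The 3D libraries all lay below the 2D libraries for 1 factor at timepoint 1, 5 at timepoint 2 and 7 at timepoint 3, where this held for 1.84%, 13% and 20.2% of all genes. With all 18 libraries edgeR called 1 factor (ELF3) at timepoint 2, against 0.453% of all genes, and 0 at timepoint 3, against 0%. At an unadjusted p under 0.05 that timepoint 3 comparison had 6 factors and 10.7% of all genes. With the replicate number as a block, 6 factors were called at timepoint 2, against 15.9% of all genes, and 4 at timepoint 3, against 9.75%.

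Leaving out single libraries changed the count at timepoint 2. It was 0 without 3D timepoint 2 replicate 1, 1 without 2D timepoint 2 replicate 2 or replicate 3, and 2 without 2D timepoint 2 replicate 1 or 3D timepoint 2 replicate 3. At timepoint 3 it was 2 or 3 when any 1 library was left out. Shares of all genes in these fits are not given, so the counts show only how the calls moved.

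**Figure D2:**
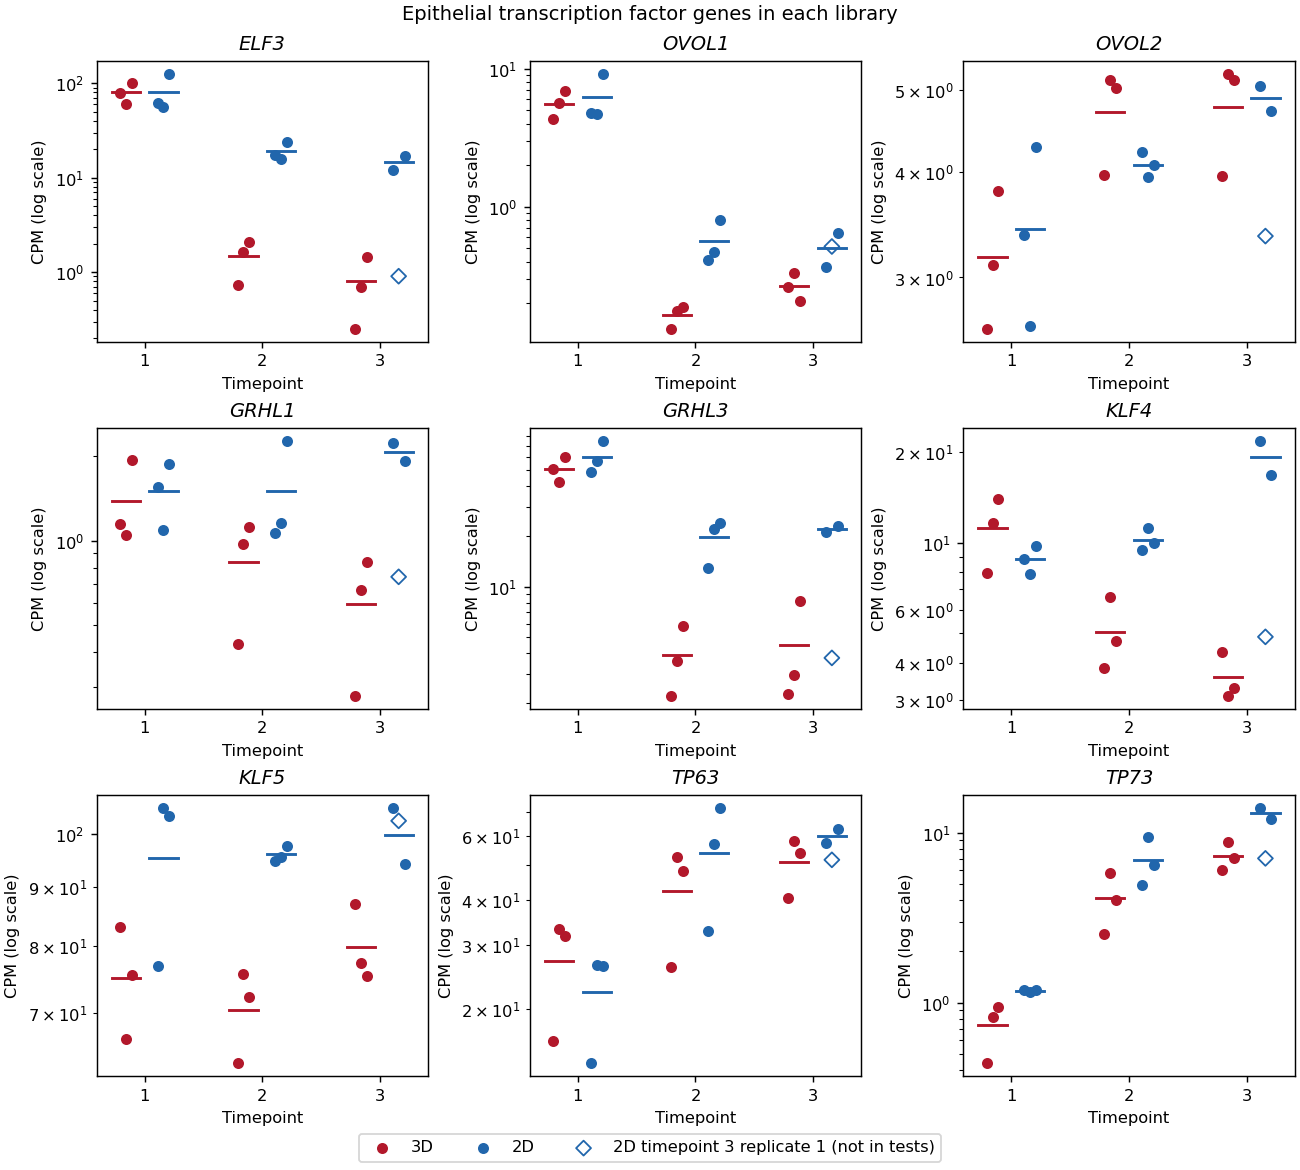
CPM of the 9 tested factors in each library on log axes, by timepoint; red points are 3D libraries, blue points 2D libraries, short lines the group means, and open diamonds the library labelled 2D timepoint 3 replicate 1, which is not in the means. ELF3, OVOL1 and GRHL3 stand highest at timepoint 1 in both cultures, and the 3D points of ELF3 and GRHL3 lie below the 2D points in the tests at timepoints 2 and 3.

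ELF3 (ENSG00000163435.16, chromosome 1, 202007945 to 202016009, plus strand, hg38) gave the largest culture difference of the 9 factors at timepoints 2 and 3. It was at 79.1, 59.9 and 101 CPM in the 3D libraries of timepoint 1, at 0.724, 1.64 and 2.10 CPM at timepoint 2, and at 0.251, 0.699 and 1.45 CPM at timepoint 3. In 2D it was at 62.4, 56.5 and 126 CPM at timepoint 1, at 17.2, 15.7 and 23.9 CPM at timepoint 2, and at 12.2 and 17 CPM in the 2 tested libraries of timepoint 3. The cultures overlapped at timepoint 1 and did not overlap at either later timepoint. The order of group means ran from both timepoint 1 groups, which overlapped, through 2D at timepoints 2 and 3, which overlapped each other, down to 3D at timepoints 2 and 3, which overlapped each other too.

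The log2 fold change of ELF3, 3D over 2D, was -0.03 (SE 0.44) at timepoint 1, -3.68 (SE 0.50) at timepoint 2 and -4.19 (SE 0.54) at timepoint 3. That was 12.9-fold lower in 3D at timepoint 2, where it averaged 1.49 ± 0.701 CPM in the 3D libraries, against 19.0 ± 4.34 CPM in the 2D libraries (SD, n = 3 each). At timepoint 3 it was 18.2-fold lower, at 0.800 ± 0.606 CPM in 3D (SD, n = 3), against 14.6 ± 3.43 CPM in 2D (SD, n = 2). Between libraries of one replicate number the log2 CPM of 3D minus 2D was -4.53, -3.23 and -3.49 at timepoint 2, and -4.06 and -3.53 for replicates 2 and 3 at timepoint 3. With all 18 libraries the timepoint 3 value was -3.64 and did not pass the threshold. The timepoint 2 value was -3.34, and not called, without 3D timepoint 2 replicate 1.

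ELF3 fell with time in both cultures. The later libraries also hold the culture difference known when the factors were listed, so the p-values here are no independent support. In 3D the log2 fold change against timepoint 1 was -5.76 (SE 0.55, edgeR adjusted p = 6.32e-06) at timepoint 2 and -6.64 (SE 0.57, edgeR adjusted p = 2.09e-06) at timepoint 3. In 2D it was -2.10 (SE 0.46, edgeR adjusted p = 0.0109) at timepoint 2 and -2.48 (SE 0.54, edgeR adjusted p = 0.0150) at timepoint 3. With all 18 libraries the 2D change at timepoint 2 had an edgeR adjusted p of 0.0948. That change also lost its call without 2D timepoint 1 replicate 3 or 2D timepoint 2 replicate 1 or replicate 2, at -2.04 to -1.64, and the 2D change at timepoint 3 without either of its 2D libraries, at -2.74 and -2.26.

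The change from timepoint 1 to timepoint 3 differed between 3D and 2D by -4.16 (SE 0.69) on the log2 scale, which passed edgeR's threshold with 17 libraries but not with 18. It passed in 10 of the 17 fits that left out 1 library. It was lost without 2D timepoint 1 replicate 1 or replicate 2, 3D timepoint 1 replicate 3, 3D timepoint 3 replicate 1 or replicate 2, or either 2D library of timepoint 3, at -4.38 to -3.73, and at -4.16 in a fit of these groups alone. At timepoint 2 that difference was -3.66 (SE 0.65) and was not called, though it was with the replicate block, with DESeq2 and with no filter on low counts. These differences hold the culture difference known when the factors were listed, so no p-value is given for them.

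The noncoding gene AL691482.3 (ENSG00000249007.1, chromosome 1, 202011370 to 202015657) lies within ELF3 on the same strand, and reads of the pair cannot be told apart. Its log2 fold change, 3D over 2D, was -3.75 at timepoint 2 and -4.64 at timepoint 3. With the counts of both genes summed, ELF3 and AL691482.3 together gave -3.69 at timepoint 2 and -4.21 at timepoint 3. ELF3-AS1, on the other strand and overlapping the 5′ part of ELF3, averaged between 15.4 and 19.0 CPM in all 6 groups and was called in none of the 9 comparisons. With the strand setting unknown, reads where a gene and its antisense partner overlap cannot be told apart, here and for OVOL1 and TP73.

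The window before the RefSeq start of ELF3 is shown with those of GRHL3 and KLF4, because these 3 factors were called lower in 3D at both later timepoints. Each line holds the 250 bases before a RefSeq start on GRCh38.p14, 5′ to 3′ on the gene's strand. RefSeq windows were found for 7 of the 10 factors. Capitals mark matches, on either strand, to these motifs: the core promoter box TATAAA, the NF-kB consensus of GGG, any 2 bases and then TTTCC, the E2 box CACCTG that ZEB and SNAI factors bind, and the KLF motif CCACCC. Motifs searched without a match in these windows were TGANTCA for AP-1, AACNNGTT for grainyhead factors, CCGTTA for OVOL factors and CCGGAA for ETS factors. None of the matches printed overlap.
ELF3, chr1:202010337-202010586, plus strand: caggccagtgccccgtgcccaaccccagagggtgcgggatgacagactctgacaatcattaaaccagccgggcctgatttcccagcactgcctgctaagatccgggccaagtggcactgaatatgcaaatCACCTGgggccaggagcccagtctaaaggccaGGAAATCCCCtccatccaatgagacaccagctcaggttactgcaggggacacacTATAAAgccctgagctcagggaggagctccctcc
GRHL3 start 1, chr1:24319107-24319356, plus strand: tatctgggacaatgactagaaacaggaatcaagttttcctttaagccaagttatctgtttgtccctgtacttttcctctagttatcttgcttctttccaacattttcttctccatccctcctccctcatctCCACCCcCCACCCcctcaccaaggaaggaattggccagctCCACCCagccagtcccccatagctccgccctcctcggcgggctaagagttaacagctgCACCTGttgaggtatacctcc
GRHL3 start 2, chr1:24322790-24323039, plus strand: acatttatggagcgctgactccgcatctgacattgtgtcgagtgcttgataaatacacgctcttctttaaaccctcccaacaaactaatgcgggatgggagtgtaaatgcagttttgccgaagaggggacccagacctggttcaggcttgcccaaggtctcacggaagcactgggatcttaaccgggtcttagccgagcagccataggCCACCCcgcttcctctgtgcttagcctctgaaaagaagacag
KLF4, chr9:107489770-107490019, minus strand: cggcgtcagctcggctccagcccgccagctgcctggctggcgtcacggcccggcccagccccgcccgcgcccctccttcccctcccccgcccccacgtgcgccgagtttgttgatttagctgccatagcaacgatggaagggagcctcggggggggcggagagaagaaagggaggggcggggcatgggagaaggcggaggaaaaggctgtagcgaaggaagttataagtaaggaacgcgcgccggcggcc

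The ELF3 window holds 1 TATA box 34 bases, 1 NF-kB match 88 bases and 1 E2 box 120 bases before the start, and it lies inside the longer gene model of the count table. The first GRHL3 window holds 3 KLF matches, at 119, 112 and 79 bases, and 1 E2 box at 21 bases before the start, and the second holds 1 KLF match at 42 bases. The KLF4 window holds none of the letters searched. Of all 35114 RefSeq windows of this length, 10.7% hold TATAAA, 1.73% the NF-kB letters, 17.5% CACCTG and 31.3% CCACCC. The other letters were in 6.57% (AP-1), 3% (grainyhead), 2.45% (OVOL) and 14.5% (ETS) of windows. CACCTG stands in the ELF3 window and the first GRHL3 window. A match describes letters only, not a bound site.

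OVOL1 (ENSG00000172818.10, chromosome 11, 65787063 to 65797214, plus strand), a zinc finger repressor active in differentiating epithelia, dropped to a low level after timepoint 1 in both cultures. In 3D it was at 4.31, 5.60 and 6.85 CPM at timepoint 1, at 0.131, 0.176 and 0.190 CPM at timepoint 2, and at 0.265, 0.333 and 0.209 CPM at timepoint 3. Its 2D libraries were at 4.74, 4.73 and 9.17 CPM at timepoint 1, at 0.409, 0.474 and 0.802 CPM at timepoint 2, and at 0.365 and 0.641 CPM at timepoint 3. The later 3D libraries held 9 to 20 counts of OVOL1 each, and the cultures did not overlap at either later timepoint.

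The log2 fold change of OVOL1, 3D over 2D, was -0.15 (SE 0.31) at timepoint 1, -1.77 (SE 0.39) at timepoint 2 and -0.93 (SE 0.41) at timepoint 3, and of these the second alone was called. It lost that call when any 1 library of timepoint 2 was left out, with values of -1.96 to -1.43. Within replicate numbers, 3D minus 2D was -1.49, -1.22 and -1.91 in log2 CPM at timepoint 2. OVOL1 was listed with earlier results of these data known, so its p-values for change with time are no independent support. Against timepoint 1, OVOL1 fell by 5.08 at timepoint 2 (edgeR adjusted p = 1.04e-06) and by 4.37 at timepoint 3 (edgeR adjusted p = 2.02e-06) in 3D on the log2 scale. In 2D the log2 fold changes were -3.47 (edgeR adjusted p = 2.5e-05) and -3.60 (edgeR adjusted p = 1.16e-04). The difference between the cultures in these changes, -1.62 at timepoint 2 and -0.77 at timepoint 3, did not pass, though the first did with the replicate block. OVOL1-AS1, on the other strand within OVOL1, stayed below 0.5 CPM on average in every group.

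OVOL2 (ENSG00000125850.11, chromosome 20, 18024163 to 18057916, minus strand), the paralog that represses ZEB1, moved little. Its 3D libraries were at 2.61, 3.11 and 3.79 CPM at timepoint 1, at 3.96, 5.13 and 5.02 CPM at timepoint 2, and at 3.95, 5.23 and 5.14 CPM at timepoint 3. The 2D levels lay at 3.37, 2.63 and 4.29 CPM at timepoint 1, at 4.22, 3.94 and 4.08 CPM at timepoint 2, and at 5.06 and 4.72 CPM at timepoint 3. The cultures overlapped at every timepoint, with log2 fold changes, 3D over 2D, of -0.12 (SE 0.21), 0.20 (SE 0.21) and -0.04 (SE 0.23). In 3D its libraries of timepoints 2 and 3 all lay above those of timepoint 1, with log2 fold changes of 0.57 (edgeR adjusted p = 0.0780) and 0.59 (edgeR adjusted p = 0.0820) against timepoint 1. Both passed with the replicate block, at adjusted p of 0.0253 and 0.0243.

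Of the grainyhead factors, GRHL3 varied with culture and time, GRHL1 less so, and GRHL2 had almost no counts. GRHL2 (ENSG00000083307.12, chromosome 8) had 2 counts in 1 library, 2D timepoint 1 replicate 3, and 0 counts in the other 17 libraries, below the floor of 3 counts. It was not tested, and no fold is given.

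GRHL3 (ENSG00000158055.15, chromosome 1, 24323040 to 24354488, plus strand) is the grainyhead factor of epidermal barrier formation and neural tube closure in mice. The 3D levels lay at 50.6, 42.4 and 60.2 CPM at timepoint 1, at 2.21, 3.57 and 5.83 CPM at timepoint 2, and at 2.26, 2.96 and 8.21 CPM at timepoint 3. In 2D it was at 48.8, 56.3 and 74.7 CPM at timepoint 1, at 12.8, 22.3 and 24.2 CPM at timepoint 2, and at 21.2 and 23.1 CPM at timepoint 3. As for ELF3, both timepoint 1 groups overlapped, the later 2D groups overlapped each other, and the later 3D groups lay below them and overlapped each other. Replicate 3 was the highest 3D library at both later timepoints.

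The log2 fold change of GRHL3, 3D over 2D, was -0.23 (SE 0.40) at timepoint 1, -2.36 (SE 0.43) at timepoint 2 and -2.30 (SE 0.46) at timepoint 3. Its mean at timepoint 2 was 3.87 ± 1.83 CPM in 3D, against 19.8 ± 6.07 CPM in 2D (SD, n = 3 each). Within replicate numbers 3D minus 2D was -2.53, -2.63 and -2.05 in log2 CPM at timepoint 2, and -2.82 and -1.49 for replicates 2 and 3 at timepoint 3. With all 18 libraries neither later difference passed. The timepoint 3 call was also lost without either 2D library or without 3D replicate 1 or replicate 2, with values of -2.37 to -1.98, and the timepoint 2 call without 3D replicate 1 or 2D replicate 2 or replicate 3.

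Against timepoint 1, GRHL3 fell in 3D, with log2 fold changes of -3.73 (edgeR adjusted p = 7.38e-05) at timepoint 2 and -3.51 (edgeR adjusted p = 9.34e-05) at timepoint 3. GRHL3 too was listed with earlier results of these data known, so its p-values for change with time are no independent support. In 2D it fell too at timepoint 2, at -1.6 (edgeR adjusted p = 0.0301, and 0.107 with all 18 libraries). That call was kept in 12 of the 17 fits that left out 1 library and lost without 2D timepoint 1 replicate 2 or replicate 3 or any 2D library of timepoint 2, at -1.77 to -1.37. Its 2D change at timepoint 3 was -1.44 and did not pass (edgeR adjusted p = 0.101), though it did with the replicate block (edgeR adjusted p = 0.00402). The cultures differed in these changes by -2.12 (SE 0.58) at timepoint 2 and -2.07 (SE 0.61) at timepoint 3, neither called. Both were called with the block and with no filter on low counts, and the second also without 3D timepoint 3 replicate 3, at -2.85.

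GRHL1 (ENSG00000134317.18, chromosome 2, 9951693 to 10002277, plus strand), which acts in desmosome gene expression in the epidermis of mice, was low throughout. In 3D it was at 1.15, 1.04 and 1.95 CPM at timepoint 1, at 0.427, 0.976 and 1.12 CPM at timepoint 2, and at 0.278, 0.666 and 0.836 CPM at timepoint 3. Its 2D libraries were at 1.55, 1.09 and 1.88 CPM at timepoint 1, at 1.07, 1.16 and 2.27 CPM at timepoint 2, and at 2.23 and 1.92 CPM at timepoint 3. The cultures overlapped at timepoints 1 and 2 and not at timepoint 3, where the log2 fold change, 3D over 2D, was -1.80 (SE 0.48) and not called. With the replicate block that difference was -1.71 and was called. Its change from timepoint 1 to timepoint 3 in 3D was -1.21 (edgeR adjusted p = 0.0925, and 0.0138 with the block), and in 2D it was 0.46 (edgeR adjusted p = 0.648).

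KLF4 (ENSG00000136826.15, chromosome 9, 107484852 to 107489769, minus strand), a zinc finger factor of epithelial differentiation that is also rapidly induced by stimuli, moved in opposite directions in the cultures. Its 3D libraries were at 7.91, 11.6 and 14.0 CPM at timepoint 1, at 3.83, 6.60 and 4.72 CPM at timepoint 2, and at 4.34, 3.10 and 3.29 CPM at timepoint 3. The 2D levels lay at 8.84, 7.85 and 9.77 CPM at timepoint 1, at 9.49, 11.2 and 9.95 CPM at timepoint 2, and at 21.8 and 16.8 CPM at timepoint 3. All 3D libraries of timepoints 2 and 3 lay below those of timepoint 1, and both tested 2D libraries of timepoint 3 lay above those of timepoints 1 and 2.

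The log2 fold change of KLF4, 3D over 2D, was 0.34 (SE 0.23) at timepoint 1, -1.02 (SE 0.24) at timepoint 2 and -2.43 (SE 0.26) at timepoint 3. At timepoint 3 it averaged 3.58 ± 0.672 CPM in 3D (SD, n = 3), against 19.3 ± 3.50 CPM in 2D (SD, n = 2). Within replicate numbers 3D minus 2D was -1.30, -0.75 and -1.07 in log2 CPM at timepoint 2, and -2.80 and -2.35 for replicates 2 and 3 at timepoint 3. In replicate 1, where the 2D library was the one left out, it was -0.16. KLF4 lost its call at timepoint 2 in 10 of the 17 fits that left out 1 library, with values of -1.07 to -0.85, and kept it at timepoint 3 in all 17. With all 18 libraries the values were -1.02 at timepoint 2 and -2.02 at timepoint 3, and neither was called.

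KLF4 fell in 3D by 1.15 (edgeR adjusted p = 0.00472) at timepoint 2 and by 1.64 (edgeR adjusted p = 3.12e-04) at timepoint 3, on the log2 scale and against timepoint 1. As for ELF3, the later libraries also hold the culture difference known beforehand, so the p-values for KLF4 in 3D and 2D are no independent support. In 2D it changed by 0.21 (edgeR adjusted p = 0.718) at timepoint 2 and rose by 1.13 (edgeR adjusted p = 0.0172) at timepoint 3, where all 18 libraries gave 0.71 (edgeR adjusted p = 0.342). That rise lost its call without 2D timepoint 1 replicate 1 or replicate 2 or either 2D library of timepoint 3, at 0.93 to 1.31. The 3D fall at timepoint 2 had an edgeR adjusted p of 0.0526 with all 18 libraries. The cultures differed in the change to timepoint 3 by -2.77 (SE 0.35), which was called with 17 libraries and not with 18. The difference at timepoint 2, -1.36 (SE 0.33), was not called, though it was with DESeq2 and with no filter on low counts.

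KLF5 (ENSG00000102554.14, chromosome 13, 73059005 to 73077538, plus strand), a factor of proliferating basal epithelial cells, kept a narrow range. It ran from 63.3 to 86.9 CPM over 9 libraries in 3D, against 76.9 to 105 CPM over 8 tested libraries in 2D. The 3D libraries lay below the 2D libraries at timepoints 2 and 3, with log2 fold changes, 3D over 2D, of -0.34 (SE 0.15), -0.45 (SE 0.15) and -0.32 (SE 0.16) at the 3 timepoints. None was called, and the second was with the replicate block. Its changes with time lay between -0.09 and 0.09 in either culture.

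**Figure D3:**
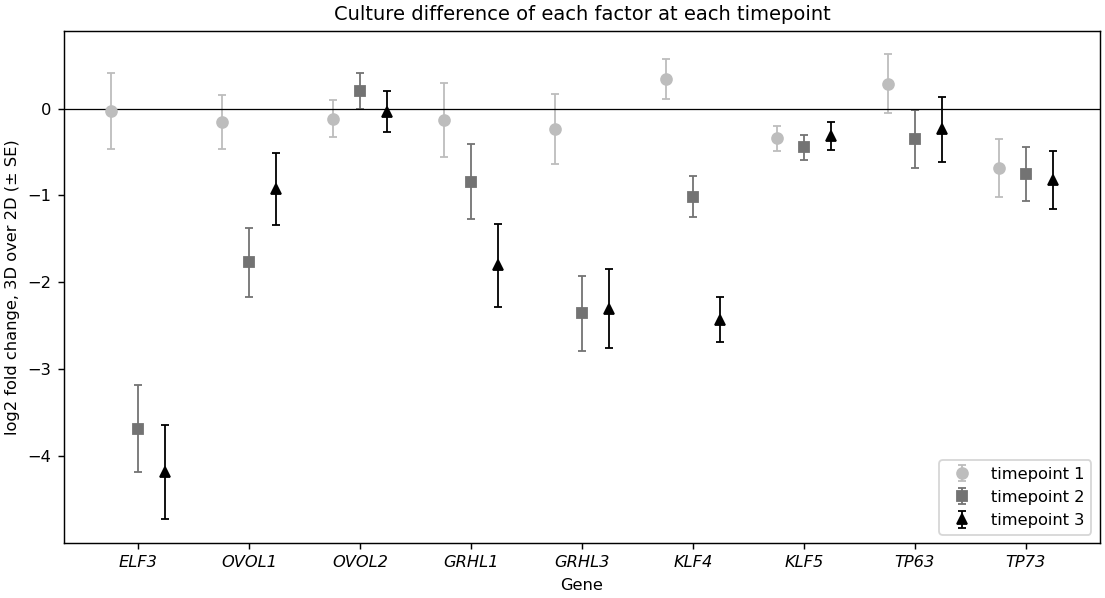
Log2 fold change, 3D over 2D, of the 9 tested factors at timepoint 1 (pale circles), 2 (grey squares) and 3 (black triangles), with bars of 1 SE; 17 libraries. ELF3 reaches -3.68 and -4.19 and GRHL3 -2.36 and -2.30 at the later timepoints, KLF4 lies at 0.34 at timepoint 1 and at -2.43 at timepoint 3, and OVOL2, KLF5 and TP63 stay within 0.5 of 0 at all 3 timepoints.

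TP63 (ENSG00000073282.13, chromosome 3, 189631389 to 189897276, plus strand), the p53 relative that maintains basal epithelial cells, had higher means at the later timepoints in both cultures. The 3D levels lay at 16.2, 33.3 and 31.8 CPM at timepoint 1, at 26.1, 52.5 and 47.9 CPM at timepoint 2, and at 40.4, 58.2 and 54.0 CPM at timepoint 3. In 2D it was at 14.1, 26.4 and 26.3 CPM at timepoint 1, at 32.7, 57.0 and 71.6 CPM at timepoint 2, and at 57.3 and 62.6 CPM at timepoint 3. Replicate 1 was the lowest library in each of the 5 groups in which it was tested. The cultures overlapped at every timepoint, with log2 fold changes, 3D over 2D, of 0.28 (SE 0.34), -0.35 (SE 0.34) and -0.24 (SE 0.37).

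Against timepoint 1, the log2 fold change of TP63 in 3D was 0.64 (edgeR adjusted p = 0.222) at timepoint 2 and 0.91 (edgeR adjusted p = 0.100) at timepoint 3. In 2D it rose, by 1.27 (edgeR adjusted p = 0.0370) and 1.43 (edgeR adjusted p = 0.0360). These calls were kept in 10 and 12 of the 17 fits that left out 1 library. The first was lost without any 1 library of 2D timepoint 1 or timepoint 3 or without 2D timepoint 2 replicate 2 or replicate 3, at 1.01 to 1.42. The second was lost without any 1 library of 2D timepoint 1 or timepoint 3, at 1.19 to 1.57. With the replicate block both 3D changes passed, at adjusted p of 0.0025 and 1.27e-04. The difference between the cultures in these changes was -0.64 (SE 0.48) at timepoint 2 and -0.52 (SE 0.50) at timepoint 3 and was not called in either fit.

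TP73 (ENSG00000078900.15, chromosome 1, 3652516 to 3736201, plus strand), the paralog known for its role in multiciliated cells, rose with time in both cultures. In 3D it was at 0.441, 0.825 and 0.940 CPM at timepoint 1, at 2.55, 5.82 and 4 CPM at timepoint 2, and at 6.01, 8.84 and 7.12 CPM at timepoint 3. Its 2D libraries were at 1.18, 1.16 and 1.19 CPM at timepoint 1, at 4.90, 9.37 and 6.49 CPM at timepoint 2, and at 13.9 and 12.1 CPM at timepoint 3. Within each culture the 3 timepoints did not overlap, and 3D lay below 2D without overlap at timepoints 1 and 3.

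Against timepoint 1, TP73 rose in 3D by 2.49 (edgeR adjusted p = 1.75e-04) at timepoint 2 and 3.32 (edgeR adjusted p = 1.33e-05) at timepoint 3. In 2D it rose by 2.55 (edgeR adjusted p = 2.53e-04) and 3.46 (edgeR adjusted p = 4.39e-05), all on the log2 scale. The difference between cultures in these changes was -0.07 (SE 0.46) at timepoint 2 and -0.14 (SE 0.48) at timepoint 3. Its log2 fold change, 3D over 2D, was -0.69 (SE 0.33), -0.75 (SE 0.31) and -0.83 (SE 0.33) at the 3 timepoints, with no call. The second was called with the replicate block. TP73-AS1, whose annotated span overlaps the end of TP73 on the other strand, averaged between 35.6 and 44.4 CPM in the 6 groups.

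**Figure D4:**
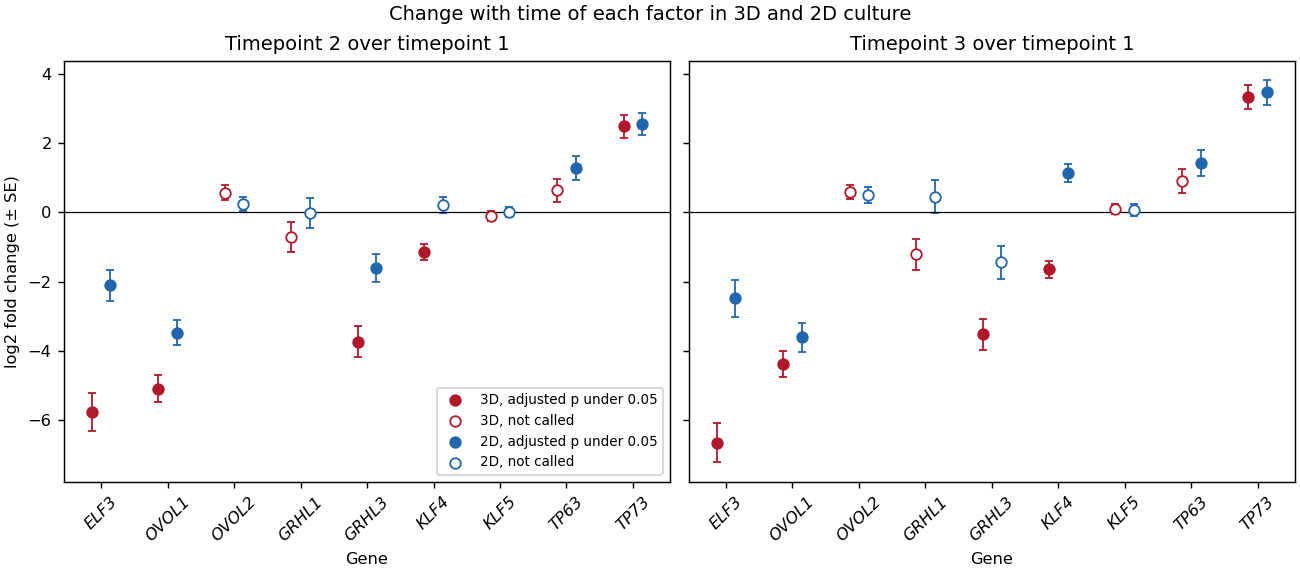
Log2 fold change against timepoint 1 of the 9 tested factors, at timepoint 2 (left) and timepoint 3 (right); red is 3D, blue 2D, bars are 1 SE and filled points have an edgeR adjusted p under 0.05. ELF3, OVOL1 and GRHL3 lie below 0 and TP73 above 2 in both cultures, and KLF4 lies below 0 in 3D and at 0.21 and 1.13 in 2D.

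Over time, 1 of 9 factors was called higher and 4 lower in 3D at timepoint 2, against 7.31% of all genes called higher, 7.76% lower and 15.1% in either direction. At timepoint 3 in 3D it was 1 higher and 4 lower, against 4.07%, 6.95% and 11%. In 2D 2 were called higher and 3 lower at timepoint 2, against 2.66%, 3.22% and 5.87% of all genes, and 3 higher and 2 lower at timepoint 3, against 2.5%, 2.36% and 4.86%. The higher ones were TP73 in 3D, TP63 and TP73 in 2D, and KLF4 in 2D at timepoint 3. All of these comparisons share the timepoint 1 libraries of their culture. Their later libraries also hold the culture differences of ELF3 and KLF4 known when the factors were listed, so nothing is read from these counts. With the replicate block 8 were called in 3D at timepoint 3, against 23.9%, and with all 18 libraries 3 in 2D at timepoint 2, against 5.51%.

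By edgeR the change from timepoint 1 differed between cultures for 0 factors at timepoint 2, against 0% of all genes. At an unadjusted p under 0.05 there were 4 factors and 1624 genes (8.73%). DESeq2 called 2 factors, limma-voom 0 and edgeR with no filter 3. Shares of all genes are not given for these settings, so nothing is read from their counts. With the replicate block edgeR called 3, against 1.31% of all genes. At timepoint 3 the change differed for 2 factors, both lower, against 0.177% of all genes lower, 0.00538% higher and 0.183% in either direction. With all 18 libraries it was 0 factors, against 0%, with 2 factors and 3.51% of all genes at an unadjusted p under 0.05.

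The deposited tables of the authors list 9 of the factors at each timepoint. In the authors' deposited table, 0 of them had an adjusted p under 0.05 at timepoint 1, 3 at timepoint 2 and 3 at timepoint 3. The authors' deposited log2 fold changes, 3D minus 2D, were -3.87 for ELF3, -2.47 for GRHL3 and -1.11 for KLF4 at timepoint 2. At timepoint 3 the authors' deposited values were -4.53 for ELF3, -2.56 for GRHL3 and -2.45 for KLF4. OVOL1 at timepoint 2 had -1.72 in the authors' deposited table and was not among the 3.

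The factors were set against each other across the 17 tested libraries, which share groups, so the correlations describe these libraries and carry no p. Log2 CPM of ELF3 and GRHL3 correlated at 0.98, and at 0.86 after each group's mean was taken off. ELF3 and OVOL1 correlated at 0.88, and at 0.42 after group means were taken off. TP63 and TP73 correlated at 0.85, and at 0.76 after group means were taken off. ELF3 and TP73 correlated at -0.60, and at 0.31 after group means were taken off, so the sign turned.

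Among 13563 genes with a mean count of at least 50, the 5 whose log2 CPM was most like that of ELF3 over the 17 libraries were CLDN4, a tight junction protein, CGN, the tight junction protein cingulin, BTG2, EPHB3 and CLMN, at Pearson r of 0.98 to 0.97. After group means were taken off, these 5 correlated with ELF3 at 0.84 to 0.66, and the 5 most like it were other genes, at 0.95 to 0.89. The 3 most like GRHL3 were BTG2, CYFIP2 and CLDN4, at 0.98 to 0.97, so the ELF3 and GRHL3 lists have BTG2 and CLDN4 in common. LMO7 and RAB11FIP1 were among the 3 most like OVOL1, at 0.99. For KLF4 they were GATA6, ATF3 and ESPN, at 0.94 to 0.93. For TP63 they were NOP9, SPECC1L-ADORA2A and GRIP1, at 0.95 to 0.92, and for TP73 COG8, AC026464.3 and BDKRB2, at 0.95. For OVOL2 they were HSD17B1, AC067852.2 and ADIRF at 0.94 to 0.93, for GRHL1 IRF5, CRB3 and ABCA3 at 0.91 to 0.90, and for KLF5 CSAD, KLHDC8B and TWNK at 0.82 to 0.77. With group means taken off, the lowest of these were 0.28 for BDKRB2 with TP73 and 0.36 for KLHDC8B with KLF5.

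Genes tied to grainyhead and OVOL factors in other epithelia, a list of 20 junction, membrane and protease genes of which 18 were tested, had log2 fold changes below 0, 3D over 2D, for 17 at timepoint 2 and 18 at timepoint 3. At timepoint 2, 5 were called lower and 0 higher, against 0.785% of all genes, and at timepoint 3 again 5 lower and 0 higher, against 1.26%. This list and the related lists below were chosen with earlier results of these data known. Their counts are therefore a description, and nothing is read from them about the factors. CLDN4, CLDN7, PPL and RHOV were among the 5 at both. The medians were -0.73 at timepoint 2 and -0.92 at timepoint 3, beside -0.03 and 0.02 over all genes. With the replicate block 14 and 13 were called lower, against 15.9% and 9.75% of all genes in either direction. CLDN4 averaged 0.951 ± 0.847 CPM in the 3D libraries at timepoint 2, against 7.34 ± 3.00 CPM in the 2D libraries (SD, n = 3 each), a log2 fold change of -2.97. CLDN7, a claudin, gave -0.83 at timepoint 2 and -1.45 at timepoint 3.

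With time, 11 of these 18 genes fell and 1 (ARHGEF19) rose in 3D at timepoint 2, against 7.76% of all genes lower and 7.31% higher. At timepoint 3 in 3D 12 fell and 0 rose, against 6.95% and 4.07%. In 2D 5 fell at timepoint 2, against 3.22%, and 6 at timepoint 3, against 2.36%, and 0 rose at either, against 2.66% and 2.5%. E-cadherin, CDH1, fell in 3D, with log2 fold changes of -1.56 at timepoint 2 and -1.98 at timepoint 3 (edgeR adjusted p = 0.00506 and 9.67e-04). CDH1 is named here because its values were seen, so it does not stand for the list. Its p-values are no independent support.

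The p63 and basal program was followed in 20 genes, all tested. Between cultures edgeR called 0 at timepoint 2, against 1.49% of all genes, with 5 of the 20 at an unadjusted p under 0.05, against 20.1% of all genes. At timepoint 3, 2 were called lower in 3D, ZNF750 at -3.66 and FGFR3 at -1.98, against 1.26%. With the replicate block 1 was called higher and 3 lower at timepoint 2, against 15.9% of all genes in either direction, and 4 lower at timepoint 3, against 9.75%. ZNF750, a zinc finger factor of epidermal differentiation, was under 1 CPM on average in both cultures there. KRT5, the basal keratin that pairs with KRT14, was called in none of the culture or time comparisons.

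The transcription factors of the mesenchymal transition, which OVOL2 and GRHL2 restrain in other epithelia, were called between cultures at neither later timepoint (edgeR, 0 of 8 tested, of 10 listed, with 2 at an unadjusted p under 0.05 each time, against 20.1% of all genes at timepoint 2 and 19.1% at timepoint 3). With the replicate block 2 were called higher at timepoint 2 and 1 lower at timepoint 3, against 15.9% and 9.75% of all genes in either direction. The list medians were 0.09 at timepoint 2 and 0.23 at timepoint 3. SNAI2 is named because its values were seen, so it does not stand for the list. It averaged 52.6 ± 12.4 CPM in the 3D libraries at timepoint 2, against 25.3 ± 2.63 CPM in the 2D libraries (SD, n = 3 each), and was called with the replicate block. SNAI1 fell in 3D with time, by 1.97 at timepoint 2 and by 2.76 at timepoint 3.

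Relatives of the factors were measured beside them. Of 22 other ETS genes 18 were tested, and EHF, the nearest epithelial relative of ELF3, was called lower in 3D at timepoint 2 at -1.84, and ETS2 at timepoint 3 at -1.19. These single calls stand against 0.785% and 1.26% of all genes lower. With the replicate block 4 and 2 were called lower, against 15.9% and 9.75% of all genes in either direction. EHF averaged 11.1 ± 6.12 CPM in the 3D libraries at timepoint 2, against 39.9 ± 10.9 CPM in the 2D libraries (SD, n = 3 each), and in 2D it rose by 1.64 against timepoint 1 (edgeR adjusted p = 0.0355). ERG gave 5.16 (SE 4.09) at timepoint 3, a fitted value that depends on the prior count. Of 15 other KLF genes 12 were tested, with 0 called by edgeR at timepoint 2 (4 at an unadjusted p under 0.05, against 20.1% of all genes) and KLF2 (-2.60), KLF6 (-0.96) and KLF8 (-1.06) called lower in 3D at timepoint 3, against 1.26%. The block gave 5 lower at timepoint 2 and 4 at timepoint 3, against 15.9% and 9.75% of all genes in either direction. KLF6 fell with time in both cultures and KLF11 rose in both. Of 5 relatives of OVOL, grainyhead and p53 genes, edgeR called 0 between cultures. At timepoint 2, 1 had an unadjusted p under 0.05, against 20.1% of all genes, and TFCP2L1 rose in 2D at timepoint 2 by 1.21.

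Of 20 other epithelial transcription factors 17 were tested, with 0 called by edgeR at timepoint 2 (7 at an unadjusted p under 0.05, against 20.1% of all genes) and 3 called lower in 3D at timepoint 3, against 1.26%, among them ZNF750 and SOX9, the second at -1.49. The replicate block gave 5 lower at timepoint 2 and 6 at timepoint 3, against 15.9% and 9.75% of all genes in either direction. SOX9 fell with time in both cultures, by 3.77 in 3D and by 2.82 in 2D at timepoint 2 on the log2 scale. HOPX was at 0 in all 2D libraries of timepoint 1 and averaged 0.414 ± 0.114 CPM in 2D at timepoint 2 (SD, n = 3), and its call there has no interpretable fold. ZNF750 and TFAP2C are among the genes that stand in both this list and the p63 list.

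**Figure D5:**
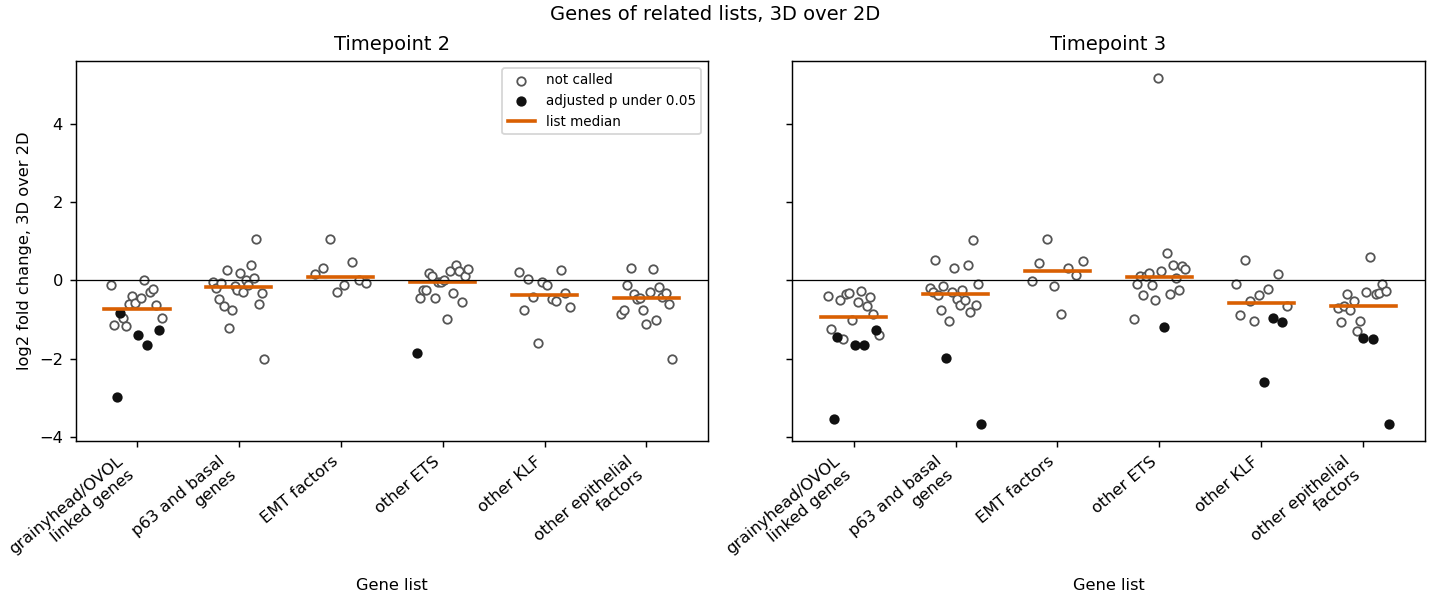
Log2 fold change, 3D over 2D, of each tested gene of 6 related lists at timepoint 2 (left) and timepoint 3 (right); black points have an edgeR adjusted p under 0.05, open points do not, and orange lines are list medians. The grainyhead and OVOL list has medians of -0.73 and -0.92, and the list of mesenchymal transition factors 0.09 and 0.23 with no black point.

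The cells carried the markers of their label. Each sum below is compared between groups only, because CPM are not comparable between genes here. All 10 mammary epithelial markers were measured, with summed levels at timepoint 2 of 8102 to 9262 CPM in 3D, against 7837 to 9786 CPM in 2D. At timepoint 3 the sums were 5478 to 9069 CPM in 3D, against 10059 to 11491 CPM in 2D. Of these 10, edgeR called 0 between cultures at either timepoint, against 1.49% and 1.5% of all genes. At an unadjusted p under 0.05 there were 2 each time, against 20.1% and 19.1% of all genes. With the replicate block 2 were lower at timepoint 2 and 1 at timepoint 3, against 15.9% and 9.75% in either direction. At timepoint 3 all 10 had log2 fold changes below 0, 3D over 2D, with a median of -0.49. Against timepoint 1, 2 of the 10 fell in 3D at timepoint 2 (CDH1 and EPCAM), against 7.76% of all genes called lower. At timepoint 3 in 3D 4 fell, against 6.95%, with CDH1 at -1.98, EPCAM at -1.84, KRT17 at -1.41 and KRT8 at -1.27. In 2D 0 fell by edgeR at timepoint 2, against 3.22%, with 4 at an unadjusted p under 0.05, against 18.5% of all genes. EPCAM alone fell in 2D at timepoint 3, at -1.23, against 2.36%. The leukocyte marker CD3E was at 0 throughout and PTPRC was at or near 0, while CD14, which other cells also express, was called lower in 3D, at -1.16 at timepoint 2 and -1.33 at timepoint 3. CSF1R, the receptor of a macrophage growth factor, rose against timepoint 1 in both cultures, by 1.84 and 1.14 in 3D and by 2.27 and 2.00 in 2D, and was not called between cultures. Summed fibroblast markers, 4 of 7 tested, ran from 117 to 210 CPM in 3D at timepoint 2, against 152 to 242 CPM in 2D, and summed endothelial markers, 4 of 5 tested, stayed under 8 CPM in every library. The part of these levels in the differences of the factors was not tested.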

How the data were processed

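RNA from 18 MCF10A libraries was read as single-end 50-base reads of poly-A RNA. Per the submitters' processing notes, tools named are STAR 2.7.1a, HOMER, edgeR and limma with the hg38 build. Reads were assigned to genes under a rule, annotation and strand setting not given in the sources used here. Whole-number counts per gene were deposited for all 18 libraries in 1 table, and 0 sample columns went unused. The authors' deposited log2 CPM table covers 17 libraries and gave the library totals. The authors' deposited tables of 3D against 2D hold log2 fold changes, p-values and scores (limma column names, per the file headers).

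Samples were grouped by the culture, timepoint and replicate of their titles. Counts were tested with edgeR 4.0.16 in R 4.3.3: filterByExpr, TMM scaling, 1 fit of 17 libraries in 6 groups, quasi-likelihood F tests, and Benjamini-Hochberg adjustment over the 18592 genes kept. The standard error is the log2 fold change divided by the square root of F. Log2 CPM used a prior count of 2. Settings varied were the scaling (RLE), DESeq2 1.42.0, limma-voom (limma 3.58.1), no filter, a mean count of at least 50, all 18 libraries, the replicate number as a block, fits of 2 groups alone, leaving out each library, and ELF3 counts summed with those of AL691482.3. The scripts were tested on simulated data. The sample descriptions carry 1 date per replicate number. Libraries of the same number deviated from their group means together, with correlations of 0.187 to 0.519 in all 8 pairs of 3D and 2D libraries, so the number pairs them.

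The factors and related gene lists were chosen with earlier results of these data known. Named genes were the factors, AL691482.3, up to 4 called genes of each list by smallest p, and the genes most like each factor (5 for ELF3, 3 for the others). Some genes under this rule are not reported here. KRT5, SNAI2, ERG and ARHGEF19, and CDH1 in the grainyhead and OVOL list, were added after their values were seen. Promoter windows came from RefSeq (GRCh38.p14).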

Additional observations from a re-analysis of the deposited data

Results flagged for a closer look

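The change of ELF3 from timepoint 1 to timepoint 3 differed between the cultures: it was -6.64 in 3D and -2.48 in 2D on the log2 scale, a difference of -4.16 (SE 0.69) that edgeR's interaction term called. KLF4 did so too, with a change of -1.64 in 3D and 1.13 in 2D, a difference of -2.77 (SE 0.35). These differences hold the culture differences of ELF3 and KLF4 that were known when the factors were listed, so the calls are no independent support. Both rest on 2 libraries of 2D at timepoint 3. With all 18 libraries the differences were -3.62 for ELF3 and -2.36 for KLF4, and neither was called. The ELF3 difference was called in 10 of the 17 fits that left out 1 library, and that of KLF4 in all 17.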

How the results depend on the processing

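Counts of factors called changed by over 1.5 times, or from or to 0, under the settings named next and in some fits that left out 1 library. The main fit called 4 between cultures at timepoint 2 and 3 at timepoint 3. It called 5 in each of the changes with time, and 0 and 2 for the difference of changes at timepoints 2 and 3. The shares of all genes for these main counts are given above. All 18 libraries gave 1 called between cultures at timepoint 2 (0.453% of all genes) and 0 at timepoint 3 (0%). They gave 3 in 2D at timepoint 2 against 1 (5.51%) and 0 for the difference of changes at timepoint 3 (0%). The replicate block gave 8 in 3D at timepoint 3 against 1 (23.9% of all genes). For the difference of changes at timepoint 2 it gave 3 (1.31%), where DESeq2 gave 2 and no filter 3. Fits of the groups alone gave 1 for the difference at timepoint 3. Leaving out single libraries gave 0 to 0 called between cultures at timepoint 1, 0 to 4 at timepoint 2 and 2 to 3 at timepoint 3. It gave 2 to 5 in 2D at timepoint 2, 2 to 6 in 2D at timepoint 3, 5 to 6 in 3D at timepoint 2 and 5 to 6 in 3D at timepoint 3. For the difference of changes it gave 0 to 0 at timepoint 2 and 1 to 3 at timepoint 3. Shares of all genes are not given for DESeq2, no filter, fits of groups alone or single libraries left out. Nothing is read from those counts about the factors.

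Signs turned only for values that were not called. Between cultures at timepoint 1, ELF3 gave 0.035 with limma-voom and 0.052 with the replicate block. At timepoint 3 between cultures, OVOL2 gave 0.13 with all 18 libraries and 0.027 with the block, and TP63 gave 0.043 with the block. GRHL1 in 2D at timepoint 2 gave 0.0029 with no filter and 0.00046 with the stricter filter. For the difference of changes at timepoint 3, KLF5 gave -0.0061 with no filter, and TP73 gave 0.10 with all 18 libraries and 0.11 with the block.

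Leaving out single libraries also turned signs. Between cultures at timepoint 1 the ranges were -0.23 to 0.42 for ELF3, -0.33 to 0.23 for OVOL1, -0.27 to 0.072 for OVOL2 and -0.46 to 0.048 for GRHL1, and OVOL2 gave -0.11 to 0.083 at timepoint 3. In 2D at timepoint 2, GRHL1 gave -0.44 to 0.18 and KLF5 -0.12 to 0.089, and KLF5 gave -0.068 to 0.14 at timepoint 3. For the difference of changes, KLF5 gave -0.18 to 0.031 at timepoint 2 and -0.055 to 0.16 at timepoint 3, TP73 -0.40 to 0.22 and -0.41 to 0.068, and OVOL2 -0.11 to 0.24 at timepoint 3. The causes were not tested. Low counts of OVOL1 and GRHL1 and the 2 tested libraries of 2D at timepoint 3 limit precision.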
